A study of Mus musculus with 16 samples.

Results

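The regions described here were the stretches of the mouse genome, at either end of a protein-coding gene, where Rfx3 gave a peak in embryonic retina and neither Foxn3 nor Foxn4 did. All peaks of 3 lists, 1 list for each factor, were merged wherever they overlapped by at least 1 bp, which gave 6155 merged regions. Of these, 507 were selected on 2 measured properties: they held an Rfx3 peak only, and their midpoint lay within 1 kb of either end of a protein-coding gene in the RefSeq annotation of the mm10 build. Each of the 507 held exactly 1 Rfx3 peak. The absence of the other factors and the closeness to a gene are therefore how the regions were chosen and not findings.

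The peaks came from CUT&RUN, in which an antibody directs micrococcal nuclease to a chromatin protein and the released DNA is sequenced. The tissue was retina of CD-1 mice, an outbred stock, at embryonic day 16. Retinas were pooled and dissociated, and about 300000 cells were used per assay, with no genetic change or drug in any group. The 16 libraries comprised 4 with anti-Foxn3 in 2 experiments, 2 with anti-Foxn4, 2 with anti-Rfx3, and 8 immunoglobulin controls (rabbit IgG, 4 for Foxn3 and 2 for Rfx3, and mouse IgG, 2 for Foxn4). Nuclease digestion at 0 °C lasted 1 h, but about 12 h for anti-Foxn4 and mouse IgG, so for Foxn4 the antibody, the control species and the digestion time cannot be told apart. The lists held 2794 peaks for Foxn3, 2956 for Foxn4 and 3981 for Rfx3, and each pooled its antibody, so no spread between replicates could be given for any region. The score of a peak is the authors' own value. Its scaling is not given in the sources used here, and it was used only to rank peaks within the Rfx3 list. Values of the IgG libraries were not analysed here. Intervals in brackets are 95% intervals that cover counting error over regions only, because regions of a pooled list are not biological replicates.

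Rfx3 belongs to the RFX family of winged-helix transcription factors. These proteins bind the X-box, an imperfect inverted repeat whose arms read GTTGCC and its reverse complement GGCAAC, often as dimers with 1 arm under each partner. RFX factors are best known as activators of genes needed to build cilia, from the intraflagellar transport machinery to the transition zone at the base of the cilium. In the retina the light-sensing outer segment of a photoreceptor is a modified cilium. Foxn3 and Foxn4 are forkhead factors, also of the winged-helix fold. Foxn4 is known in retina for its part in making amacrine and horizontal cells.

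X-box letters are shown because they are the feature that varied most with the Rfx3 score. The sequences below come from high-scoring regions and cilium genes with these letters, with Cwc25 added as the highest-scoring spliceosome gene. All are from the RefSeq promoter windows of GRCm38.p6 (mm10), which run from 250 bases before to 50 bases after a transcript start, and are written 5′ to 3′ along the gene's strand. Capitals mark the X-box match, either an arm pair (GTTNCC, then 1 to 3 bases, then GGNAAC), a pair that differs from it by 1 letter, or a single arm.
Cplane2, chr4:141213892-141213955, plus strand, pair with 1 letter different: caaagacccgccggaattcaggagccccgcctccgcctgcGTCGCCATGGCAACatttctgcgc
Fanci, chr7:79392277-79392337, plus strand, pair with 1 letter different: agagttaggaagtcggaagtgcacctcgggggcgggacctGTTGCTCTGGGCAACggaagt
Klhdc9, chr1:171360827-171360920, minus strand, pair: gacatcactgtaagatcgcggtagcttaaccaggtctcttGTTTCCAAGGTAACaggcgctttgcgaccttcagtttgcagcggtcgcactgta
Peli1, chr11:21091074-21091158, plus strand, single arm: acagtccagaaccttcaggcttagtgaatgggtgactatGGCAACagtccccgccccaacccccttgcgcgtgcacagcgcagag
Ssx2ip, chr3:146404551-146404641, plus strand, pair with 1 letter different: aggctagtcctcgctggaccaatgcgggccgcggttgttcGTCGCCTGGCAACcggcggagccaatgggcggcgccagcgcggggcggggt
Agbl3, chr6:34780371-34780431, plus strand, pair: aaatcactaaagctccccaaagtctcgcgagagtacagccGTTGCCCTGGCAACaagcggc
B9d2, chr7:25680756-25680809, plus strand, pair with 1 letter different: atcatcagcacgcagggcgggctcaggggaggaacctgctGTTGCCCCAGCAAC
Kif17, chr4:138262138-138262230, plus strand, pair with 1 letter different: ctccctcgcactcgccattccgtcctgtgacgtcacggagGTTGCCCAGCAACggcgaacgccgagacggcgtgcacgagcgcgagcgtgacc
Cwc25, chr11:97766734-97766827, minus strand, pair: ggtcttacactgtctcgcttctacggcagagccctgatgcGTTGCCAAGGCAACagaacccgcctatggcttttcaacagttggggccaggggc
Agbl3 encodes a carboxypeptidase that trims glutamate chains, Peli1 a ubiquitin ligase of immune signalling and Ssx2ip a protein of the satellites around centrioles. The pair in Klhdc9 began 82 bases before the transcript start and lay 5.0 bp from the peak midpoint. In Agbl3 it began 21 bases before the start, 21.5 bp from the midpoint, and in Cwc25 174 bases before the start, 175 bp from the midpoint. The match of Cplane2 lay 13.5 bp and that of Fanci 37.5 bp from the peak midpoint.

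For 4 more regions at cilium genes, the match lay inside the annotated span of Cep19, Ttc26, Bbs1 or Bbs4. Only the match and its nearest bases are shown, again with the match in capitals.
Cep19 and Pigx, chr16:32099803-32099832, minus strand of Pigx, pair: cgaggatcGTTCCCAAGGCAACagaaggct
Ttc26, chr6:38381483-38381512, plus strand, pair: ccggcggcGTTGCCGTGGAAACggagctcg
Bbs1, chr19:4906605-4906634, minus strand, pair with 1 letter different: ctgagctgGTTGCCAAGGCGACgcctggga
Bbs4, chr9:59353464-59353493, minus strand, pair with 1 letter different: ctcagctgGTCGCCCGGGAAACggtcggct
The pair at Cep19 and Pigx lay 17.0 bp from the midpoint of a peak that scored 274. The matches of Ttc26 and Bbs4 lay 30.0 and 22.5 bp from the midpoints of peaks that scored 108 and 87.

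The 3 lowest-scoring regions with a promoter window are shown next, as the 120 bases before the start. They were chosen by score alone, whereas the sequences above were all taken from windows with X-box letters. The printed sequences are therefore not a like comparison of high and low scores. None of these windows held the arm GTTGCC or GGCAAC, although that of Rab39 held the looser form GTTNCC. Of the 157 windows in the lowest score quartile, 19 did hold an arm. The capitals mark GGGCGG or its reverse complement CCGCCC, the GC box bound by Sp factors.
Hacd1, chr2:14056036-14056155, minus strand: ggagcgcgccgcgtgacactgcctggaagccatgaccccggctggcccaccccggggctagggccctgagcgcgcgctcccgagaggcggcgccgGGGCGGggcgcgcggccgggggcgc
Leprot, chr4:101647663-101647782, plus strand: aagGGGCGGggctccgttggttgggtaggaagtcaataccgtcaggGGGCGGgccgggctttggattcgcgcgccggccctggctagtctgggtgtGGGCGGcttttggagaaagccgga
Rab39, chr9:53706233-53706352, minus strand: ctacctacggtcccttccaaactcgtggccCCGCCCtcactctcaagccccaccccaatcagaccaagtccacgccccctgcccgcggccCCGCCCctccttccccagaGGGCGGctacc
Their Rfx3 scores were 16 for Hacd1, 14 for Leprot and 14 for Rab39. The GC content of the whole windows was 77.3%, 60.7% and 70.7%.

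Most of the 507 regions had low scores within the Rfx3 list. Their score ran from 14 to 611 with a median of 49.0 (quartiles 33 and 88.5), which put the median region at the 30.7th percentile of the Rfx3 list. Only 150 regions (29.6%, 25.8% to 33.7%) lay at or above the list median. The 797 gene-end regions that also held a Foxn3 peak but no Foxn4 peak had a median Rfx3 score of 143.0, and the 530 with all 3 factors had 60.5. The 101 gene-end regions with Foxn4 and Rfx3 were lower, with a median of 33.0, and the 1052 Rfx3-only regions away from gene ends had 68.0. Among all Rfx3-bearing gene-end regions, the share with Rfx3 alone was 37.0% (33.1% to 41.0%) in the lowest quartile of the list (scores 12 to 42). It was 33.7% in the second quartile, 26.6% in the third and 8.88% (6.78% to 11.5%) in the highest (scores 165 to 3562). Because a peak list has a threshold, a factor below it is counted as absent. Whether weak Foxn3 or Foxn4 signal lay under these peaks was not tested. The Rfx3 peak of the Rfx3-only regions had a median width of 444 bp. This was close to the 453 bp of the Rfx3 peaks in Foxn3 and Rfx3 regions. The Rfx3 peaks in regions with all 3 factors were wider, at 546 bp.

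**Figure D1:**
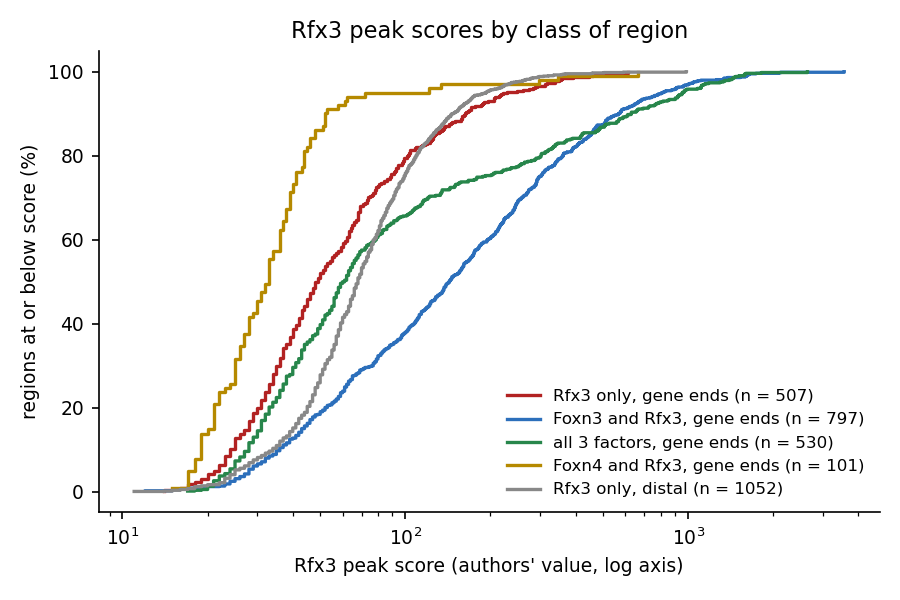
Cumulative share of regions (vertical axis, %) at or below each Rfx3 peak score (horizontal log axis, the authors' value) for 5 classes of region. The Rfx3-only gene-end curve, with a median of 49.0, lies left of that of Foxn3 and Rfx3 regions, with a median of 143.0, over most of its range.

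The regions sat mostly at promoters. Of the 507, 409 (80.7%, 77.0% to 83.9%) lay at the start of a gene, 20 (3.94%) at a 3′ end only, and for 78 no RefSeq promoter window gave the strand. The midpoint was within 100 bp of a gene end in 213 regions and within 250 bp in 368. For the 390 regions within 1 kb of a RefSeq transcript start, the midpoint lay a median of 67.5 bp upstream of it (a signed distance of -67.5 bp, quartiles -157 and 27.8), and 276 (70.8%, 66.1% to 75.1%) were upstream. The 3′-end regions had a median score of 64, against 47 for those at starts. The highest of them, with a score of 168, lay 132 bp from the 3′ end of Nrl, the leucine-zipper factor that specifies rod photoreceptors (chr14:55518864-55519358).

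**Figure D2:**
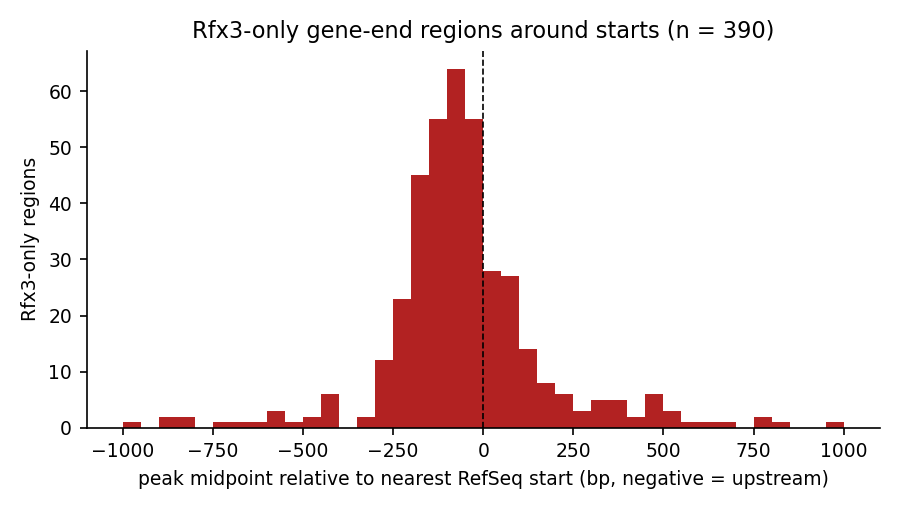
Number of Rfx3-only gene-end regions (vertical axis) by the distance of the peak midpoint from the nearest RefSeq transcript start in bp (horizontal axis, negative values upstream) for the 390 regions within 1 kb of a start. The counts pile up just upstream of the start, around the median of -67.5 bp.

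Regions with Rfx3 alone lay near the ends of 2 or more genes less often than those shared with Foxn3. Ends of 2 or more genes lay within 1 kb of 75 regions (14.8%, 12.0% to 18.1%). This held for 24.3% of the Foxn3 and Rfx3 regions, a difference of -9.55 percentage points (-13.7 to -5.15), and for 25.5% of those with all 3 factors, a difference of -10.7 points (-15.5 to -5.81). For the Foxn4 and Rfx3 regions the share was 21.8%, a difference of -6.99 points whose interval includes 0 (-16.4 to 0.714). Gene starts on opposite strands lay within 1 kb of the midpoint of 35 regions, such as the one shared by Fanci and Rlbp1 and the one shared by Cep19 and Pigx. An end of a non-coding RefSeq gene was also within 1 kb of 72 regions. The regions covered 2 microRNA hairpins, Mir8114 at Glul (score 30) and Mir7009 at Anxa5 (score 52).

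Called Foxn3 and Foxn4 peaks mostly lay far from these regions. The same distances are not given here for other regions or for all gene ends. Whether the gaps are particular to the Rfx3-only regions was therefore not tested. The nearest Foxn3 or Foxn4 peak was a median of 84929 bp away (quartiles 31396 and 228538), and 43 regions (8.48%, 6.36% to 11.2%) had one within 5 kb, nearest to Foxn3 in 33 and to Foxn4 in 10. The closest was at Setd5, a chromatin regulator, where a Foxn4 peak lay 85 bp from an Rfx3 peak that scored 20. A Foxn3 peak lay 140 bp from the region at Spata13 (score 36) and 143 bp from the one shared by Lyrm1 and Dcun1d3 (score 38). Joining peaks within 500 bp of each other left 494 regions.

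X-box letters were searched on both strands in the 351 regions (69.2%) that overlapped a RefSeq promoter window. The rule did not use sequence. The arm GTTGCC occurred in 94 of the 351 windows (26.8%, 22.4% to 31.6%), against 12.7% of all 21238 promoter windows and 13.5% of the 7763 windows whose GC content lay between the quartiles of the Rfx3-only windows. The share was 36.0% in Foxn3 and Rfx3 windows, a difference of -9.25 points (-15.1 to -3.14), and 16.4% in windows with all 3 factors, a difference of 10.4 points (4.69 to 16.2). The stricter arm pair was rare. It occurred in 15 Rfx3-only windows (4.27%, 2.61% to 6.93%), in 7.92% of Foxn3 and Rfx3 windows, in 0.664% of those with all 3 factors and in 0.72% of all windows. Away from gene ends, 6 of the 61 windows of Rfx3-only regions held the pair (9.84%, 4.59% to 19.8%). Allowing 1 letter of the pair to differ, a form chosen after the sequences of the highest-scoring regions had been seen, gave 70 windows (19.9%, 16.1% to 24.4%), against 30.7% with Foxn3, 9.29% with all 3 factors and 4.89% of all windows.

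The share of windows with X-box letters rose with the Rfx3 score. The share of Rfx3-only windows with an arm was 12.1% (7.89% to 18.1%, 157 windows) in the lowest score quartile of the list, next to the 12.7% of all windows. It was 30.2% (21.9% to 40%) in the second quartile, 43.1% (31.8% to 55.2%) in the third and 54.5% (38.0% to 70.2%, 33 windows) in the highest. At or above the list median it was 46.9% and below it 19.0%, a difference of 28.0 points (17.0 to 38.7). Seen from the other side, the median Rfx3 score was 74.0 in the 94 windows with an arm and 40 in the 257 without, and 124.0 in the 15 windows with a pair. The GC content moved the other way, from a median of 65.7% in the lowest quartile to 58.3% in the highest, and its part in these shares was not tested. A high score did not require an arm in the window. Of the 10 highest-scoring regions, only those of Cplane2 and Fanci had a window with an arm, although not all 10 had a window. The window of Bub1, with a score of 359, held none.

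Within score quartiles the difference from Foxn3 and Rfx3 windows took both signs. Those windows held an arm in 19.1%, 26.3%, 32.4% and 46.5% from the lowest to the highest quartile. The differences, Rfx3-only minus Foxn3 and Rfx3, were -7.00 points (-17.3 to 2.10), 3.95 (-8.61 to 16.4), 10.7 (-3.19 to 24.7) and 8.04 (-9.50 to 24.7), and each interval includes 0. The lowest quartile, which holds 157 of the 351 windows, kept a deficit, and below the list median the difference was -3.90 points (-11.7 to 3.67). Scores are not matched within the highest quartile, where the shared regions reach 3562 and the Rfx3-only regions 611. Restricted to peaks at or above the list median, the overall difference reversed to 5.18 points, with an interval from -5.50 to 16. Against regions with all 3 factors the Rfx3-only windows stayed higher in 3 of 4 quartiles, by 23.0 points (12.8 to 33.4) in the second, 20.3 (4.26 to 35.1) in the third and 22.4 (3.53 to 39.8) in the highest. In the lowest the difference was 3.20 points (-3.92 to 10.2).

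**Figure D3:**
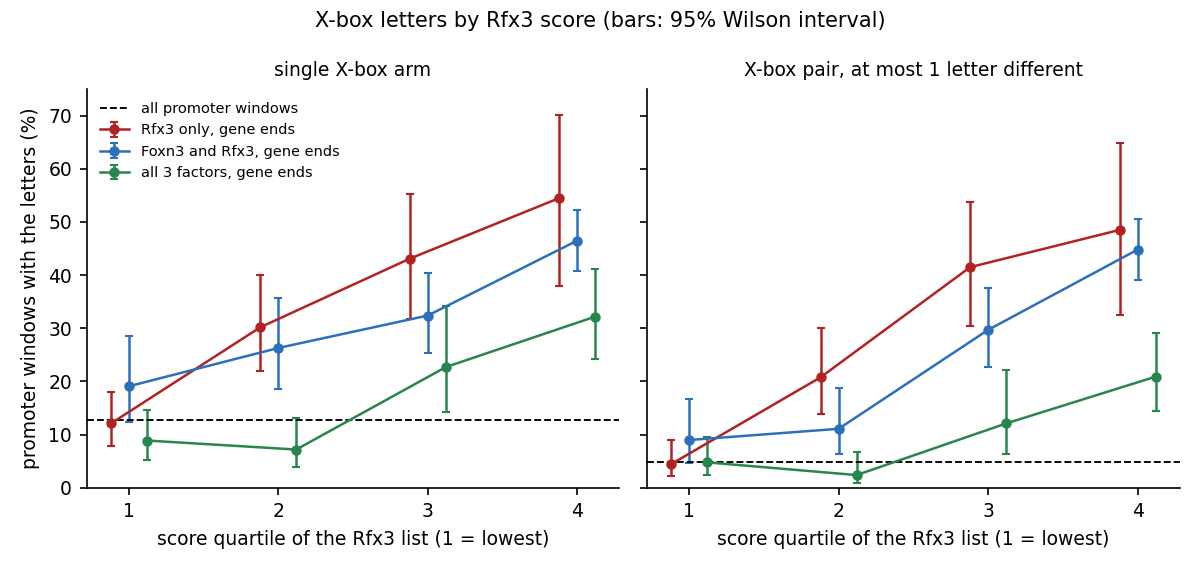
Share of promoter windows (vertical axis, %) with a single X-box arm (left) or with an arm pair in which at most 1 letter differs (right), by score quartile of the Rfx3 list (horizontal axis). Points are 3 classes of gene-end region with 95% Wilson intervals and the dashed line is the share of all promoter windows. The single-arm share of Rfx3-only windows runs from 12.1% to 54.5%.

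Where an arm was present, it tended to lie near the centre of the peak. The 107 arm matches in Rfx3-only windows were a median of 53.5 bp from the peak midpoint, and 49.5% of them lay within 50 bp. Every position of the same windows taken as a match would give a median of 98.5 bp and 26.6%. The GC box GGGCGG (670 matches) had a median of 80.8 bp with 31.5% within 50 bp, and the 5 letters GACGC (232 matches) had 94.8 bp and 30.6%. The letters CCAAT (238 matches) had 78.5 bp and 35.3%. The looser arm GTTNCC (299 matches), which includes GTTGCC, had 74.0 bp and 37.5%, only slightly closer than CCAAT. The closer placement was therefore seen for the arm GTTGCC more than for these other letters.

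**Figure D4:**
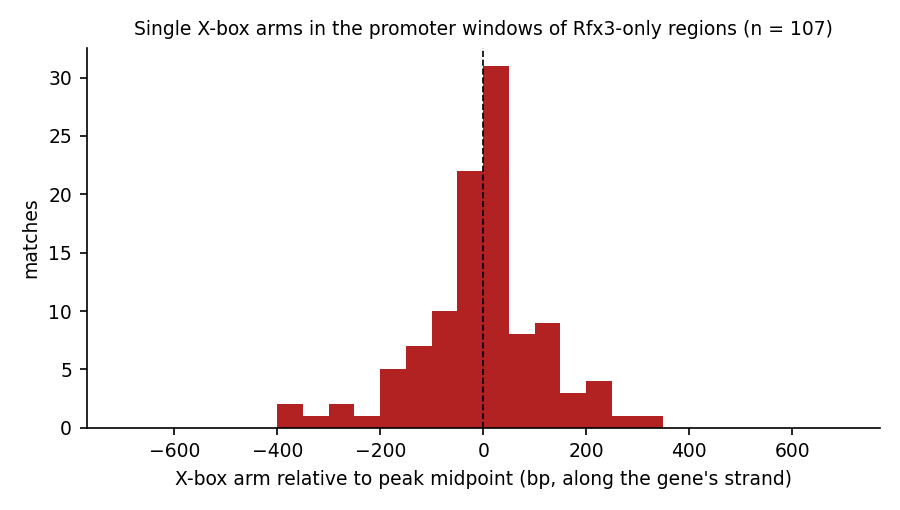
Number of X-box arm matches (vertical axis) by their distance from the peak midpoint in bp along the gene's strand (horizontal axis, 50-bp bins) in the promoter windows of Rfx3-only gene-end regions. The 107 matches gather around 0, with 49.5% of them within 50 bp.

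Other letters separated the classes in part. GACGC, the forkhead-like site that Foxn3 and its relative Foxn2 are known to bind, occurred in 158 Rfx3-only windows (45.0%, 39.9% to 50.2%). It occurred in 57.8% of Foxn3 and Rfx3 windows, a difference of -12.8 points (-19.2 to -6.28). For peaks at or above the list median the shares were 40.8% and 61.5%, a difference of -20.7 points (-30.9 to -9.72), and below it they were 46.6% and 49.5%, with an interval that includes 0 (-12.1 to 6.54). The share in promoters of like GC content was 47.1%. It was 58.8% in Foxn4 and Rfx3 windows, which have no Foxn3 peak (a difference of -13.8 points, -25.9 to -0.845). With all 3 factors it was 54.6% (-9.63 points, -16.5 to -2.66). The higher share was thus not particular to regions with a Foxn3 peak. The CCAAT box bound by NF-Y occurred in 43.0% of Rfx3-only windows. This was near the 38.2% of all windows and the 37.9% of promoters of like GC content (a difference of 5.1 points, -0.0946 to 10.4). The share was 39.7% with Foxn4 and Rfx3 and 53.8% with Foxn3 and Rfx3. It was 71.0% with all 3 factors, 28.0 points more than in Rfx3-only windows (a difference of -28.0 points, -34.5 to -21.2). The GC box was in 72.4% of Rfx3-only windows, against 65.3% with Foxn3 and Rfx3 and 69.5% of promoters of like GC content. It was more frequent with all 3 factors, at 80.1% (a difference of -7.72 points, -13.7 to -1.81), and with Foxn4 and Rfx3, at 83.8% (-11.5 points, -19.9 to -0.0551). The E-box CACGTG, bound by basic helix-loop-helix factors, was in 5.70% of Rfx3-only windows. It was in 12.8% of Foxn3 and Rfx3 windows, a difference of -7.06 points (-10.5 to -3.27), and in 1.47% of Foxn4 and Rfx3 windows. All windows held it in 7.84% and promoters of like GC content in 10.6%. These letters are descriptions of the windows and not bound sites.

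The Rfx3-only windows were rich in GC, with a median content of 63.7% against 60% for Foxn3 and Rfx3 windows and 56.3% for all windows. Among peaks at or above the list median this difference of 3.67 points reversed to -1, with an interval from -4.33 to 3.00. The median number of CpG dinucleotides was 22.0, against 21.0 with Foxn3 and Rfx3 (a difference of 1, -1 to 4) and 13.0 in all windows. Other classes were as rich in GC. The median content was 66.3% in Foxn4 and Rfx3 windows and 64.7% in windows of Rfx3-only regions away from gene ends. With all 3 factors it was 61.7%.

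The 507 regions lay at the ends of 573 of 21887 protein-coding genes, a background of 2.62%. For comparison, 1004 genes (4.59%) had a Foxn3 and Rfx3 region, 664 (3.03%) had a region of all 3 factors and 2329 (10.6%) had an Rfx3 peak of any kind. Of 267 genes on 7 lists of cilium components, 23 (8.61%, 5.81% to 12.6%) carried an Rfx3-only region. Another 93 carried a Foxn3 and Rfx3 region, 25 one of all 3 factors and 3 one of Foxn4 and Rfx3, and 123 carried none. Cilium genes with an Rfx3 region were thus Rfx3-only in 16% of cases, against 24.6% over all genes. The lists were drawn up with results of these data known, and no set test was made.

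The BBSome, the complex that ferries membrane proteins in and out of cilia, had the highest Rfx3-only share of any list, 5 of 14 genes (35.7%, 16.3% to 61.2%). They were the subunits Bbs1 (score 99), Bbs4 (87) and Bbs9 (41), the chaperonin-like assembly factor Bbs12 (157), and Cep19 (274), a protein of the ciliary base listed with them. The Bbs12 peak spanned the starts of both Bbs12 and Cetn4, and its window held no arm. Only Bbs9 was below the list median of the Rfx3 scores. Another 5 BBSome genes had a Foxn3 and Rfx3 region and 2 had one of all 3 factors.

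Of 23 genes of intraflagellar transport complex B and its motors, 3 (13.0%, 4.54% to 32.1%) had an Rfx3-only region. They were Kif3b, a subunit of the heterotrimeric kinesin-2 motor (score 170), Ttc26, the IFT56 subunit (108), and Kif17, the homodimeric kinesin-2 (47). Of 14 genes of complex A and dynein-2, 1 did: Tctex1d2, a dynein-2 light chain (157). The transition zone, the gate at the base of the cilium, gave 3 of 40 (7.5%, 2.58% to 19.9%): B9d2, of the B9 complex, with 221, and the membrane proteins Tmem17 with 137 and Tmem237 with 127. The centriole list gave 3 of 54 (5.56%): the satellite protein Ssx2ip scored 293, Cep55, needed for the final cut of cell division, 35, and Haus8, of the augmin complex, 32. Efcab7, which tethers a Hedgehog regulator in the cilium, was the only one of 27 Hedgehog genes, with a score of 59. The promoter windows at Ttc26, Kif17, Tctex1d2, B9d2 and Ssx2ip held an X-box arm. Those at Kif3b, Tmem17, Tmem237, Cep55, Haus8 and Efcab7 held none.

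Motile-cilium genes gave 7 of 95 (7.37%, 3.61% to 14.4%), although retinal cells are not known for motile cilia. They were Ttc12, a dynein assembly factor (score 143), Rsph3a and Lrrc23 of the radial spoke (125 and 72), Cfap53 (68) and Cfap58 (56), and the inner-arm dynein heavy chains Dnah7b (62) and Dnah7a (52). Reads of Dnah7a, Dnah7b and the near-identical Dnah7c, which was also a member with 45, may be split among copies by alignment, as may those of Rsph3a, so these positions are uncertain. In contrast, 43 of the 95 motile-cilium genes had a Foxn3 and Rfx3 region. None of 20 regulators of multiciliation and RFX genes had an Rfx3-only region. This allows a share of up to 16.1%, a range that holds the background of 2.62%. A Foxn3 and Rfx3 region was found at 4 of the 20.

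Among 35 forkhead genes 3 (8.57%, 2.96% to 22.4%) had an Rfx3-only region: Foxn2, the closest relative of Foxn3, scored 208, the mitotic regulator Foxm1 61 and the liver factor Foxa3 37. The Foxm1 and Foxa3 peaks lay 602 and 779 bp from the gene end and nearer to Tex52 and Sympk. Of 67 retinal transcription factors 2 (2.99%, close to the background) did, Nrl at its 3′ end and Onecut2, a factor of early retinal neurons, with a score of 42. Of 37 Notch genes only the target repressor Hey1 did, with 34.

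Among housekeeping lists, spliceosome genes had 9 of 75 (12.0%, 6.44% to 21.3%). Cwc25, a splicing-step factor whose promoter holds the X-box pair printed above, scored 164, but Prpf19 and Snrnp35 followed at 58 and 46, and the other 6 scored 25 to 38. When peaks at or above the list median were kept, 1 of the 9 remained. The cell cycle list had 6 of 74 (8.11%, 3.77% to 16.6%), led by the spindle-checkpoint kinase Bub1 with 359 and followed by Foxm1 with 61 and the checkpoint protein Bub3 with 49. Repair genes had 3 of 80 (3.75%): Fanci, of the Fanconi anaemia pathway, scored 542, Fance, of the same pathway, 45, and the damage sensor Ddb1 28. Respiratory complex I had 3 of 46 (6.52%), Ndufaf8 with 58, Ndufaf3 with 29 and Ndufb11 with 25. The proteasome had 2 of 39 (5.13%), Psmb6 with 93 and Psmc4 with 40. Histones had 3 of 101 (2.97%), with H2bc13 and H2ac13 sharing 1 region of score 39, and H3f3a scoring 23; histone genes are near-identical copies, so these positions are uncertain. Zinc finger genes named Zfp had 13 of 394 (3.30%, 1.94% to 5.56%), led by Zfp287 with 249 and Zfp653 with 126. Cytosolic ribosomal proteins had 1 of 84 (Rpl7, 98), mitochondrial ones 1 of 78 (Mrpl41, 27), and none of 58 DNA replication genes or 40 aminoacyl-tRNA synthetases had any, which allows shares of up to 6.21% and 8.76%.

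**Figure D5:**
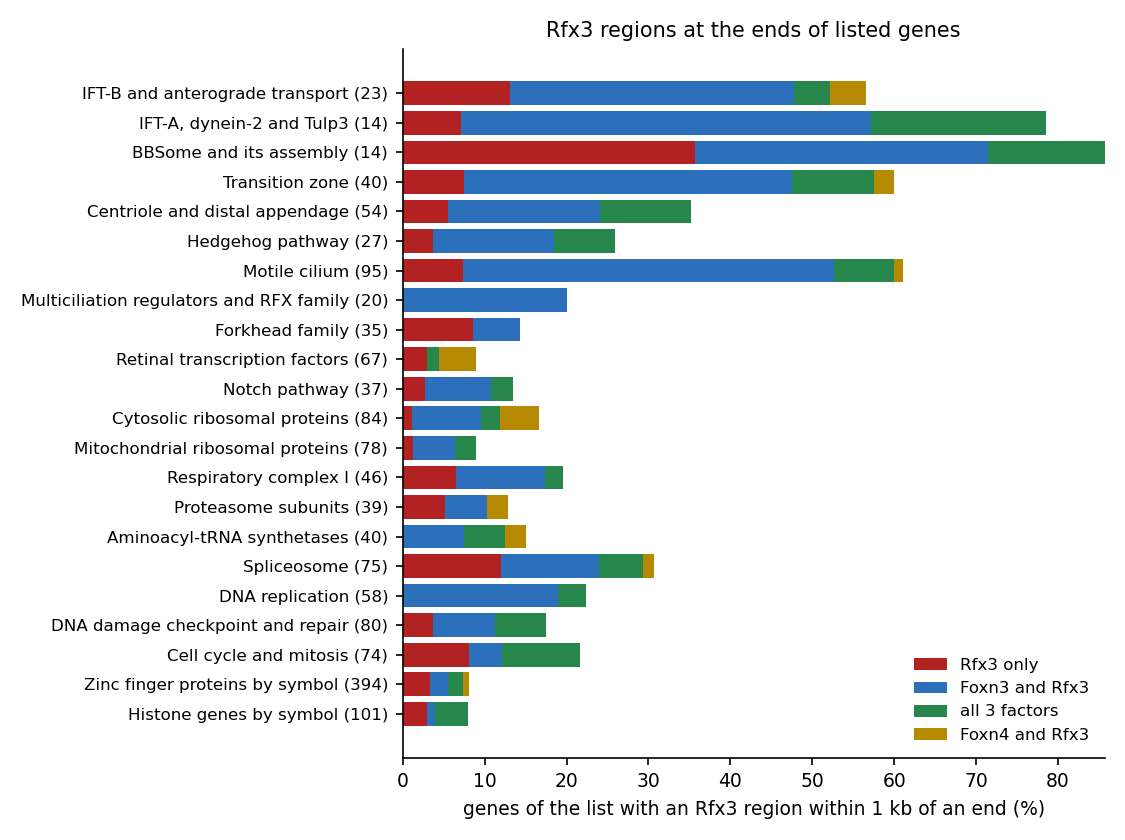
Share of the genes of each list (horizontal axis, %) with an Rfx3 region within 1 kb of an end, split by the factors found with Rfx3. The number of genes is in brackets after each name. The Rfx3-only part is longest for the BBSome, at 35.7%, and absent from DNA replication, at 0 of 58.

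The strongest region lay 15.5 bp from the start of Cplane2, a small GTPase of the ciliogenesis and planar polarity effectors (chr4:141213789-141214061), with a score of 611, rank 173 of 3981. Next came Usp30, a mitochondrial deubiquitinase, with 569, and the region shared by Fanci and Rlbp1, with 542. Rlbp1 encodes the retinaldehyde-binding protein of Müller glia and pigment epithelium. Churc1 followed with 487, Ccdc32 with 460 and Net1, an activator of RhoA, with 446. Zeb1, a zinc-finger repressor, scored 392, the Polycomb protein Pcgf1 383, Bub1 359 and Pemt, a methyltransferase that makes phosphatidylcholine, 356. These 10 ranked from 173 to 410 in the list, so no Rfx3-only gene-end region ranked above 173. At the other end, Hacd1 and the region shared by Kmt2b and Zbtb32 scored 16, that of Gnb3 and P3h3 scored 15, and Leprot and Rab39 scored 14.

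Of the 573 genes, 9 had more than 1 Rfx3-only region. Stk33, a kinase, had regions of score 216 and 39. Ppm1g, a phosphatase, had a region of 215 at its start and a region of 69 at its 3′ end, shared with the start of Zfp513. Dpf1, a neuronal chromatin-remodelling subunit, had a region of score 59 at its start and one of 133 at its 3′ end. Zfp653 and Ecsit share a pair of regions with scores of 126 and 34. Dpp3 has a region of 49 at its start and a region of 99 at its 3′ end, shared with the start of Bbs1. Lower scores were found for H2-Ke6 (47 at its 3′ end and 45 at the other end), Gapdh (50 and 24) and Negr1 (31 and 22).

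The distance limit cut through a continuous range. The regions just inside 1 kb were at Fbxo27 (997 bp from the gene end, score 21), Zfp768 (982 bp, 69) and Asah1 (981 bp, 55). Just outside lay those at Mapkapk3 (1019.5 bp, score 52), Rxra (1032 bp, 45) and Stab2 (1038 bp, 25).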

How the data were processed

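CUT&RUN libraries of pooled retina were analysed from 3 deposited peak lists in mm10 coordinates, per the file headers. The submitters' processing notes name cutadapt, Bowtie2, UMI-tools, bedtools and SEACR. Their settings, the threshold, the use of the IgG libraries and how libraries were combined are not given in the sources used here. The deposited score of each peak, made by the authors, was used only for ranks and medians. No depth per library was analysed here.

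Peaks were merged in Python 3.11.15 with pandas 2.3.3 and numpy 2.4.6. Intervals are 95% Wilson intervals for shares and Newcombe intervals for differences of shares, both computed from their formulas. The interval for the difference in median GC content is of neither kind. The binomial distribution used for intervals of medians came from scipy 1.17.1. Plots used matplotlib 3.10.9. Gene positions came from RefSeq for GRCm38.p6 (21887 protein-coding genes on the assembled chromosomes). A region took the window of a transcript whose 300 bases it overlapped. Windows were given for 17492 genes, and 12 regions lay on a chromosome without windows. All sequence searches read both strands and allowed overlapping matches. Beside the letters spelled out in the text they covered GTAAACA (forkhead), GCATGCGC (NRF1), CCGGAAGT (ETS), AAGATGGCG (YY1), TGACGTCA (CRE), ACTACAATT (ZNF143) and the TATA box TATAAA.

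The members, the 22 gene lists and the sequence searches were chosen with earlier results of these data known. Of the list symbols, 11 did not match the annotation. Genes were named by rule: the 10 highest and 5 lowest scores, every gene of a cilium, regulator, forkhead, retinal or Notch list, the 3 highest of each other list, genes with several regions, the 3 highest with an X-box pair or arm, and the 3 nearest to each threshold. Other genes were named after their values were seen. Merging, searching and intervals were tested on simulated data.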

Additional observations from a re-analysis of the deposited data

How the results depend on the processing

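The number of regions stayed between 437 and 707 when the overlap rule, the distance to a gene end or the gene set was changed. Keeping Rfx3 peaks at or above the list median left 150 regions at 169 genes, with 22 genes on the lists in place of 69. By construction this raised the median percentile to 68.0. It lowered the share with another factor within 5 kb to 4.67%, turned the X-box arm difference against Foxn3 and Rfx3 windows to 5.18 points, and the GC difference to -1 point. Keeping Foxn3 and Foxn4 peaks at or above their medians raised the regions to 911, since fewer peaks could exclude one. Ignoring the Foxn4 list gave a median percentile of 26.0, a share of 23.7% within 5 kb, which then counts Foxn4 peaks inside the regions, and an X-box difference of -3.12 points (-7.88 to 1.94). No paired analysis was possible because each antibody has 1 pooled list with no columns for replicates, and for the same reason no replicate could be left out. The lists carry no depth, so what was just below their thresholds could not be examined.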
